A study of Mus musculus with 27 samples.

Results

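The 39 mouse Hox cluster genes were examined across 7 groups of gastric organoids. They were taken as every row of the deposited table whose symbol is Hox, a cluster letter from a to d and a number, and they make up 39 of 56691 genes. The cells came from the stomach corpus of mice carrying the Mist1Cre/ERT2 driver and the RFPLSL reporter, which marks the cells in which the Mist1 promoter drove the inducible recombinase. The Gpx4 knockout (KO) organoids grew from Mist1+ cells of mice that also carried the floxed allele (Gpx4F/F;Mist1Cre/ERT2;RFPLSL) and were sequenced at passages 5, 10 and 15. Wild-type organoids grew from Mist1+ cells of Mist1Cre/ERT2;RFPLSL mice and were sequenced at the same passages. Organoids from Mist1- cells, labelled WT, were sequenced at passage 5 only. All groups were kept in proliferative culture in Matrigel and had 3 libraries each. No label ties a library to its own mouse or culture, so p-values measure the spread between these libraries, which may be technical. The age of 8 weeks is given for mice whose sorted cells were sequenced directly, and those 6 libraries were not analysed here.

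Hox genes encode homeodomain transcription factors that sit side by side in 4 clusters, and their order along the chromosome follows the order in which they act along the head-to-tail axis of the embryo. Low-numbered genes act anteriorly and high-numbered genes posteriorly. HOX proteins bind DNA with PBX and MEIS partners, their genes are kept silent by Polycomb complexes and kept active by trithorax (MLL) complexes, and retinoic acid induces the anterior members. In the gut, mesenchymal Hox genes help to set regional boundaries, and the CDX factors, products of the sister ParaHox genes, act in the intestine and not in the normal stomach.

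The clusters also hold microRNA genes, and they are shown because they belong to the same loci. Below are the mature forms (RefSeq, GRCm38.p6), with the seed, bases 2 to 8, in capitals.
mmu-miR-196b-5p (Hoxa): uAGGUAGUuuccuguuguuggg
mmu-miR-196a-5p (Hoxb and Hoxc): uAGGUAGUuucauguuguuggg
mmu-miR-10a-5p (Hoxb): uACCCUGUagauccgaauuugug
mmu-miR-10b-5p (Hoxd): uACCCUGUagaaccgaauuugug
mmu-miR-615-3p (Hoxc): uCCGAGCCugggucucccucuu
The miR-196 forms share 1 seed and the miR-10 forms another, as paralogous copies between Hox genes of the same position. All 6 of their genes (Mir10a, Mir10b, Mir196a-1, Mir196a-2, Mir196b and Mir615) had rows in the table and were at 0 counts in all 21 libraries. Libraries of this kind are not made to capture mature microRNAs, so this speaks only of reads on the genes.

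No Hox gene was detected in any group. Detection required 10 or more counts in every library of a group, and 0 of 39 genes met it in at least 1 group, against 25.4% of all 56691 genes. Of the 39 genes, 31 had 0 counts in all 21 libraries. The other 8 held 10 counts between them, of 345816939 counts in the table. Of the 819 gene-by-library values, 810 were 0, 8 were 1 and 1 was 2.

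The 10 counts fell in 7 libraries, and 14 libraries had none. In KO organoids at passage 5, Hoxc4 had 1 count in replicate 1. At passage 10, KO replicate 3 had 2 counts, of which 1 was on Hoxb9. At passage 15, KO replicate 2 had 1 count each for Hoxa11 and Hoxc8, and KO replicate 3 had 1 for Hoxc6. The wild-type libraries at passages 5 and 10 had no count on any Hox gene, and at passage 15 wild-type replicate 2 had 1 count on Hoxa5. Among Mist1- organoids, replicate 3 had 2 counts on Hoxa5, 0.06 FPKM, and replicate 1 had 1 on Hoxc10. FPKM scales the count by exonic kilobases and by the library total. Hoxa5 was the only Hox gene with more than 1 count in a library, and the only one with a count in 2 groups.

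**Figure D1:**
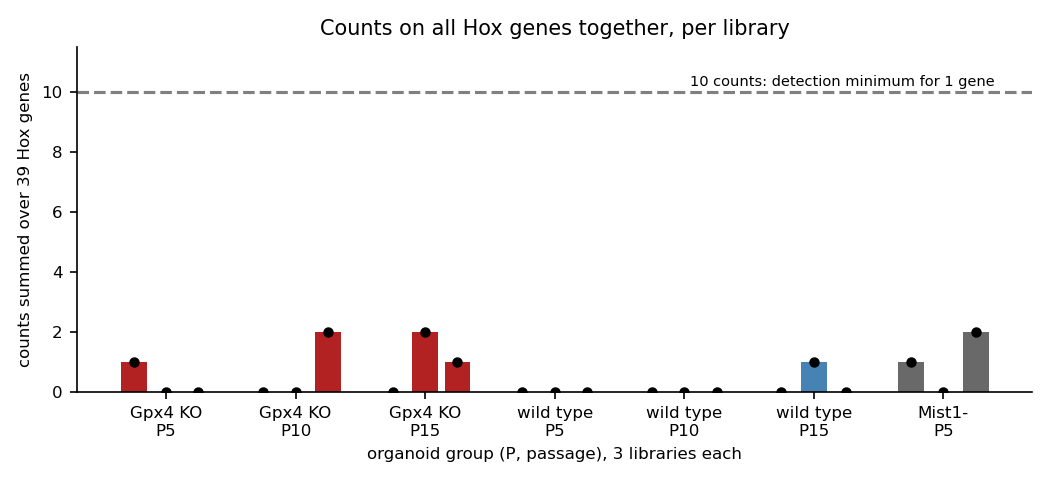
Counts summed over the 39 Hox genes (y axis) in each of the 21 libraries, grouped by genotype, origin and passage on the x axis; bars and points are single libraries and the dashed line marks the 10 counts that 1 gene needed in every library of a group. No library had more than 2 counts on all Hox genes together.

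Summed over the genes, KO organoids had 1 count at passage 5 (exact Poisson 95% interval 0.0253 to 5.57), 2 at passage 10 (0.242 to 7.22) and 3 at passage 15 (0.619 to 8.77). Wild-type organoids had 0 at passage 5 (0 to 3.69), 0 at passage 10 (0 to 3.69) and 1 at passage 15 (0.0253 to 5.57), and Mist1- organoids had 3 (0.619 to 8.77). These intervals cover counting error only, and they overlap between all 7 groups. Every group was at or under 3 counts, so no fold is given between groups. For a count of 0, 3 counts is the 95% upper limit when no lower side is set. The 3.69 above is larger because those intervals have an upper and a lower side. The limit of 3 counts was 0.0569 to 0.0661 CPM, the count scaled by the library total, over a group's 3 libraries.

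By cluster, the 11 Hoxa genes (chromosome 6) held 5 counts, among them 3 on Hoxa5 and 1 on Hoxa11. The 10 Hoxb genes (chromosome 11, 96194316 to 96368256, GRCm38, GENCODE M21) held 1, on Hoxb9. The 9 Hoxc genes (chromosome 15, 102921103 to 103036852) held 4, on Hoxc4, Hoxc6, Hoxc8 and Hoxc10. The 9 Hoxd genes (chromosome 2, 74668310 to 74765142) held none. By place in the cluster, the 8 anterior genes numbered 1 to 3, which act in the hindbrain and neck region, held 1 count. The 15 central genes numbered 4 to 8, which act in the neck and thorax, held 6, and the 16 posterior genes numbered 9 to 13, which act in the lumbar to tail region, the limbs and the genital tract, held 3. No cluster and no stretch of one stood out from these few counts.

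The 31 genes at 0 were Hoxa2, Hoxa3, Hoxa4, Hoxa6, Hoxa7, Hoxa9, Hoxa10 and Hoxa13 of the Hoxa cluster, and Hoxb1 to Hoxb8 and Hoxb13 of Hoxb. In the other clusters they were Hoxc5, Hoxc9, Hoxc11, Hoxc12 and Hoxc13, and all of Hoxd1, Hoxd3, Hoxd4 and Hoxd8 to Hoxd13. Zero counts over all libraries allow up to 0.00867 CPM. Per length, this allowed up to 0.00144 FPKM for Hoxa3, with 6014 exonic bases the longest, and up to 0.00993 FPKM for Hoxa6, with 874 the shortest. A level of 1 FPKM would have given between 12.1 counts (Hoxa6) and 118 (Hoxa3) per library. The 10 counts of the detection rule corresponded to 0.0848 FPKM for Hoxa3 in the deepest library and 0.829 FPKM for Hoxa6 in the shallowest, so short genes needed a higher level to pass the rule, and their limits from a count of 0 were looser.

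Exons of other genes overlap 16 of the Hox genes in GENCODE M21, and reads there can be left uncounted, depending on a counting mode that is not given in the sources used here. The overlap was greatest for Hoxd3, with 37.2% of its exonic bases unshared, Hoxb3 with 47.1% and Hoxd4 with 47.7%. On unshared bases alone, the limit for Hoxd3 was 0.00557 FPKM, and the highest limit among the genes at 0 was still 0.00993 FPKM. The remaining 23 Hox genes share no exonic base. Reads that match paralogues equally well can also go uncounted.

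At 0 in every library were 79.5% of Hox genes, against 45.6% of all genes, 21.5% of 21871 protein-coding genes, 48.9% of 182 other homeobox genes and 88.4% of 1139 olfactory receptor genes. The Hox share was thus the highest of these classes apart from the olfactory receptors. Of those other homeobox genes, 35 (19.2%) were detected, led by Barx2 at 22.2 FPKM, a factor of foregut epithelium, Hopx at 21.2 FPKM and Tgif1 at 14.5 FPKM, means over 21 libraries. The olfactory receptor genes, which gut epithelium is not expected to use at a measurable level, gave 0.515 counts per exonic kilobase over all libraries, against 0.0973 for Hox genes. Of the 1139 olfactory receptor genes, 3 were detected in a group. The median gene of both sets had 0 counts, so these means can rest on few genes. The homeobox and olfactory sets were drawn from gene names and descriptions after Hox values had been seen, and are given as descriptions. The homeobox set holds only genes whose description has that word, so some homeobox genes, such as Pitx1, are not in it.

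**Figure D2:**
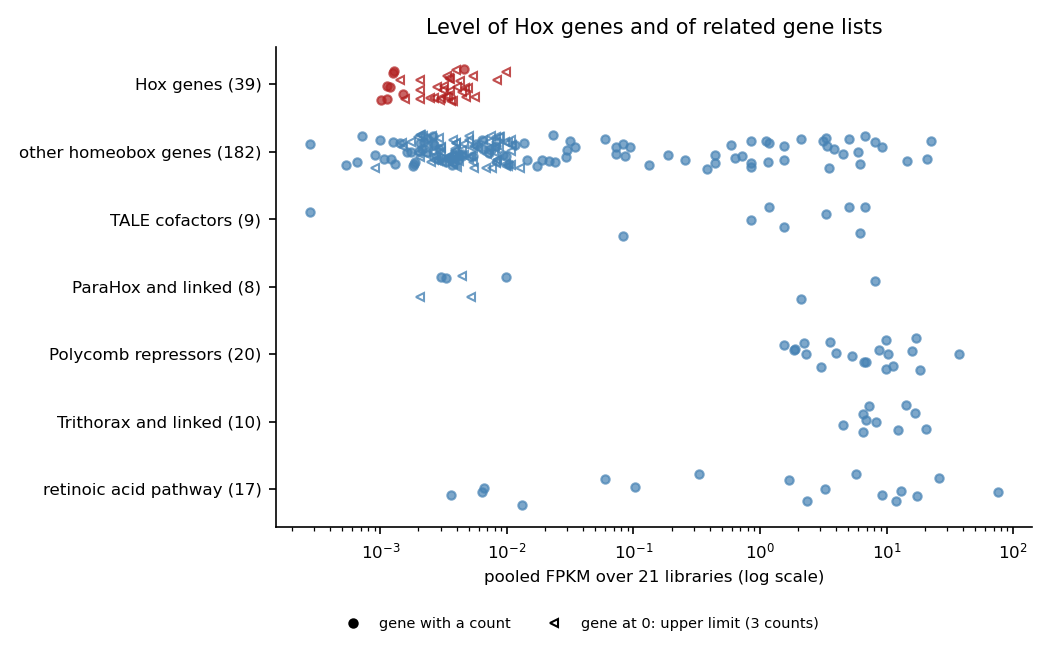
Pooled FPKM (x axis, log scale: counts summed over 21 libraries, scaled by exonic length and total counts) of each gene in the Hox set and in related sets (rows, number of genes in brackets); points are genes with a count and open triangles the limit that 3 counts set for genes at 0. Hox genes with a count lie between 0.00102 and 0.00462 FPKM, while the 20 Polycomb genes lie between 1.55 and 37.4 FPKM; the TALE and ParaHox genes also belong to the other homeobox genes.

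No shift of a Hox gene could be tested in the design as set, because 0 of 39 passed the filter on low counts (edgeR filterByExpr) in any of the 9 comparisons. With every gene with a count kept, the 8 Hox genes entered the edgeR quasi-likelihood test, 0 were called at an adjusted p of 0.05, 0 had an unadjusted p under 0.05, and the smallest unadjusted p was 0.219. DESeq2 also called 0 of these 8, with 0 under 0.05 unadjusted and a smallest unadjusted p of 0.769. With 1 or 2 counts a gene, such tests could not have shown a difference, and they do not show that the groups were alike. The fit with the filter, which held no Hox gene, called many of the 15115 genes tested. Against Mist1- organoids, Mist1+ organoids at passage 5 differed in 35.0% of genes. KO against wild type, the shares called were 30.1% at passage 5, 34.4% at passage 10 and 48.9% at passage 15. In wild type, 4.88% were called at passage 10 against 5 and 51.3% at passage 15 against 5. In KO, the shares were 7.61% at passage 10 against 5 and 13.0% at passage 15 against 5. The interaction of genotype with passage 15 against 5 called 38.3%. Those that share a group of libraries are not independent comparisons.

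Most genes flanking the clusters were detected. Taking the 5 nearest protein-coding genes on each side of each cluster, a choice made after Hox values were seen, with distances taken from the edge of the cluster, 29 of 40 were detected in all 7 groups and 6 in none. Those 6 were Evx1, Ttll6, Calcoco2, Skap1, Gm28047 and Evx2. Over all protein-coding genes, 10852 of 21871 were detected in all 7 groups. Evx1 and Evx2, even-skipped homeobox genes that lie at the posterior ends of the Hoxa and Hoxd clusters, had 3 and 0 counts in all. The nearest gene detected in every group was Mtx2, a mitochondrial import gene 60.7 kb from the Hoxd cluster, at 16.5 ± 2.03 FPKM (SD over 21 libraries). On the other side of Hoxd, Lnpk, which shapes the endoplasmic reticulum, lay 88.9 kb away at 4.73 ± 0.70 FPKM. Near Hoxc, Smug1, a uracil-DNA glycosylase, lay 116 kb away at 5.24 ± 0.41 FPKM. Near Hoxb, Atp5g1, a subunit of the ATP synthase, lay 119 kb away at 9.56 ± 1.75 FPKM, and near Hoxa, Skap2, a signalling adaptor, lay 143 kb away at 4.41 ± 0.37 FPKM. Farther out lay the splicing factor genes Hnrnpa2b1 beside Hoxa at 199 ± 17.6 FPKM, Hnrnpa1 beside Hoxc at 272 ± 46.1 FPKM and Hnrnpa3 beside Hoxd at 38.5 ± 2.45 FPKM. The stretch with almost no counts spanned each cluster, with Evx1 beside Hoxa, Evx2 beside Hoxd, and Ttll6, Calcoco2 and Skap1 beside Hoxb.

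**Figure D3:**
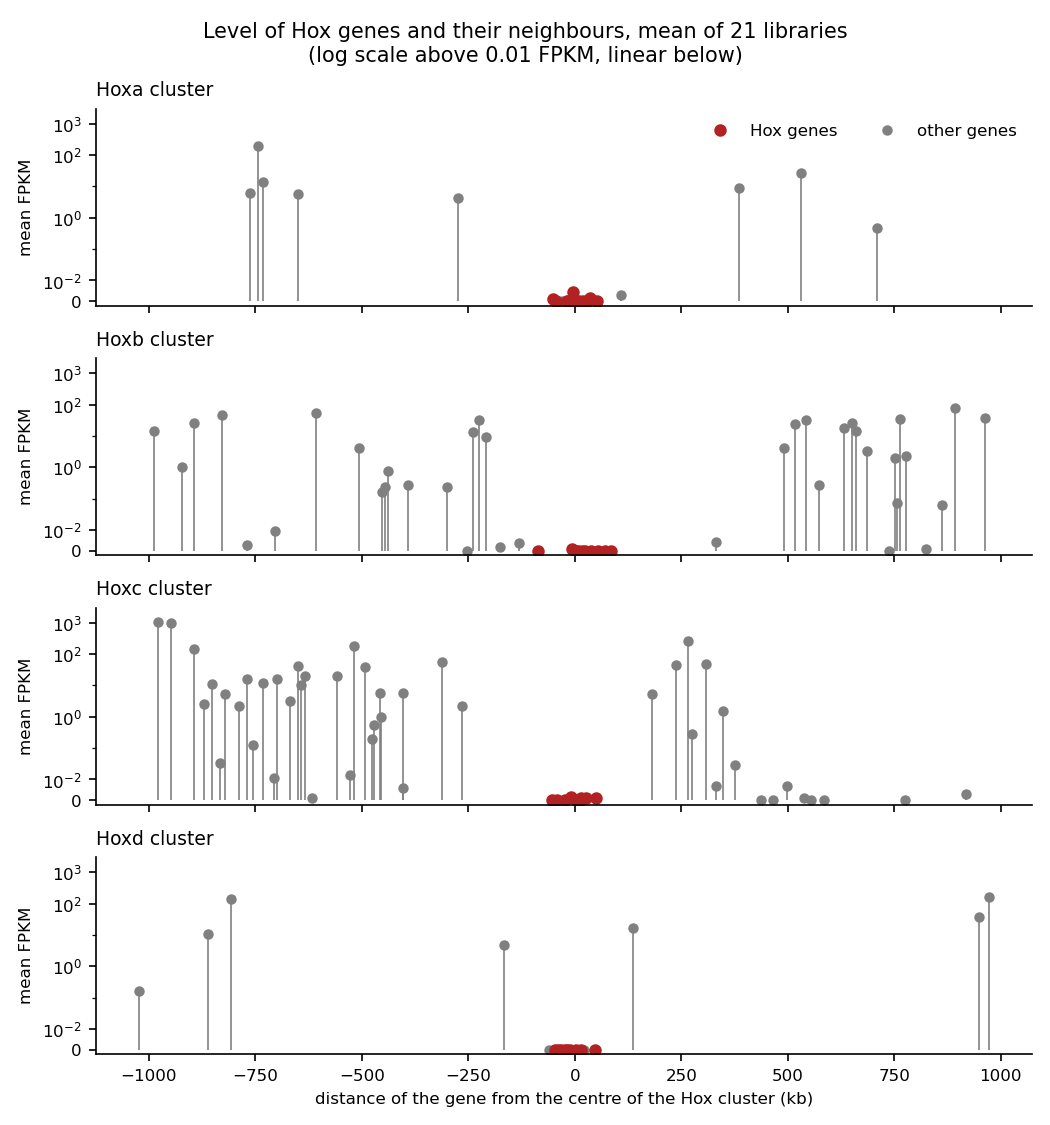
Mean FPKM over 21 libraries (y axis, log above 0.01 and linear below) of Hox genes (red) and of other protein-coding genes (grey) against their distance from the middle of each Hox cluster in kilobases (x axis). Hox genes lie at or near 0 in all 4 panels, and detected neighbours such as Mtx2 at 16.5 FPKM stand on both sides.

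Other transcripts inside the clusters were as sparse. GENCODE M21 places 46 further genes within the 4 spans, 29 of them have rows in the table, and 26 of those were at 0 in every library. The antisense transcript Hotairm1 of the Hoxa cluster had 1 count and the antisense transcript Gm15050 had 3. The processed pseudogene Gm11539 in the Hoxb span had 61, with at most 6 in a library, and reads of a processed pseudogene can come from its parent gene. Of 12 long noncoding RNAs of the clusters chosen for this, 11 had rows, 9 of them were at 0, among them Hotair, Hottip and Haglr, and Hotairm1 and Halr1 had 1 count each. Without a stated strand setting, sense and antisense reads cannot be told apart, and reads that the counting left out are not seen here.

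Promoter sequences are shown for Hoxb4, Hoxc4 and Hoxd4, paralogues of the same position in 3 clusters, and for Hoxa5, the Hox gene with the most counts. Each runs from 250 bases before to 50 after the RefSeq start (GRCm38.p6), 5′ to 3′ on the strand of the gene, with CpG in capitals.
Hoxa5, chr6:52204538-52204837, minus strand: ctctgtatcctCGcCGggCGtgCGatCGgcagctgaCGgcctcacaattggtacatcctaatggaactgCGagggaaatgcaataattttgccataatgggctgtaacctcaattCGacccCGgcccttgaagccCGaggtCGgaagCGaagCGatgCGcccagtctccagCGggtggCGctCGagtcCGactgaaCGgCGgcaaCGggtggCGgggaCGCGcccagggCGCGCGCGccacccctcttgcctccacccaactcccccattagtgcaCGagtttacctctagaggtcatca
Hoxb4, chr11:96318017-96318316, plus strand: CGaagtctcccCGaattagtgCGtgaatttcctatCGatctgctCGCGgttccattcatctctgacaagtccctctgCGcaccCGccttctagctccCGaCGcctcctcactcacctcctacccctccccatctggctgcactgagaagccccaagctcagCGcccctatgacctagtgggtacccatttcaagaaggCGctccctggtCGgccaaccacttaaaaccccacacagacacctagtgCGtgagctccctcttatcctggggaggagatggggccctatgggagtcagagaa
Hoxc4, chr15:103034145-103034444, plus strand: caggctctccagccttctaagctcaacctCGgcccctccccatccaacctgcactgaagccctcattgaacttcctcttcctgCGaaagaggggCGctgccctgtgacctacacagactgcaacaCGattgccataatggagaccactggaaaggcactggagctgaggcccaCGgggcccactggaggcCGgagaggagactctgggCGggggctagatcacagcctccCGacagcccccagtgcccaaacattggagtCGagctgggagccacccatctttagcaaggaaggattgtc
Hoxd4, chr2:74721728-74722027, plus strand: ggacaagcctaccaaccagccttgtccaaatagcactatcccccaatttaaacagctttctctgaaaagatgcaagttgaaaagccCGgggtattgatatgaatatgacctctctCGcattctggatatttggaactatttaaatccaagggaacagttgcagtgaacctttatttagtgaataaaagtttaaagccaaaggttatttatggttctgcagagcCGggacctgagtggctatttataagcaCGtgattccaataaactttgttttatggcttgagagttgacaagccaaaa
These windows hold 29 CpG in Hoxa5, 14 in Hoxb4, 9 in Hoxc4 and 4 in Hoxd4. Of the 39 Hox genes, 22 had a promoter in the reference table, with 4 to 45 CpG and a median of 13.5. A window with 10 or more CpG (the letters CG, counted on the plus strand of the window, the same on both) was found for 15 of 22 Hox genes, for 43.9% of 27025 promoters of all genes and for 81.8% of 10168 promoters of detected genes. The medians were 7 CpG over all promoters and 21 over those of detected genes, so the Hox windows lay between them. CpG-rich starts are typical of both widely used genes and Polycomb targets, and the counts say nothing of methylation or of a factor bound there.

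Most genes for partners of HOX proteins were expressed. Of 9 TALE homeobox genes, whose products bind DNA together with HOX proteins, 7 were detected in all 7 groups, against 10852 of 21871 protein-coding genes. Those 7 were the ones tested. Among them, averaged over 21 libraries, Pbx2 had 6.76 FPKM, Pbx3 5.06, Pknox1 3.31, Meis2 1.54, Pbx4 1.21 and Meis1 0.84. Meis3 and Pknox2 were not detected, with 90 counts and 1 count in all libraries. Of the 7 tested in each comparison, KO against wild type, 1 was higher and 3 lower at passage 5, 3 were higher and 0 lower at passage 10, and 3 were higher and 1 lower at passage 15 (edgeR quasi-likelihood test, adjusted p under 0.05). Over all genes tested, 30.1%, 34.4% and 48.9% were called at these passages. The medians of their log2 fold changes were 0.02, 0.26 and 0.16 at the 3 passages, against -0.004, -0.011 and -0.007 over all genes.

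Meis2, a HOX partner, had 1.14 ± 0.06, 1.89 ± 0.04 and 2.00 ± 0.05 FPKM in KO organoids at passages 5, 10 and 15, against 1.33 ± 0.10, 1.45 ± 0.09 and 1.59 ± 0.25 FPKM in wild type (SD, n = 3 each). It rose in KO at passage 15 against 5 by a log2 fold change of 0.81 ± 0.09 (SE; edgeR adjusted p 8.28e-07), and the change differed between genotypes by 0.64 ± 0.13 (edgeR adjusted p 0.000426). Meis1 was higher in KO at passage 5, with 0.97 ± 0.05 FPKM against 0.59 ± 0.05 in wild type, a log2 fold change of 0.63 ± 0.13 (edgeR adjusted p 0.000737). At passage 15, Pbx4 was lower in KO, with 0.78 ± 0.29 FPKM against 2.05 ± 0.28 in wild type, a log2 fold change of -1.39 ± 0.25 (edgeR adjusted p 0.000154). Pbx3 rose in KO at passage 15 against 5, by 0.32 ± 0.08 (edgeR adjusted p 0.00686), a call lost without KO replicate 1 of passage 5 (0.0625), and its interaction was 0.49 ± 0.11 (edgeR adjusted p 0.00166). In Mist1+ organoids Pbx2 was lower, with 5.82 ± 0.23 FPKM against 9.79 ± 0.43 in Mist1- organoids, a log2 fold change of -0.69 ± 0.07 (edgeR adjusted p 1.35e-07).

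Among 8 ParaHox and Hox-linked homeobox genes, only Cdx2 and Pdx1 were detected in a group. Cdx4, Gsx2 and Evx2 were at 0, and Cdx1, Gsx1 and Evx1 had 2, 6 and 3 counts. Cdx2, the intestinal factor that acts upstream of Hox genes in the embryo, had 6, 9 and 13 counts in the KO libraries at passage 5, then 1, 3 and 1 at passage 10 and 0, 1 and 1 at passage 15. In wild type it had 18, 10 and 18 counts at passage 5, 22, 16 and 23 at passage 10, and 524, 469 and 498 at passage 15. In Mist1- organoids it had 5, 19 and 3. The wild-type libraries of passage 15 stood far above all others. At passage 15 the KO libraries held 2 counts and the wild-type libraries 1491. Scaled by the effective library sizes of the edgeR fit (TMM), the ratio was 0.00124 (95% counting interval 0.00015 to 0.00447). In wild type at passage 15 against 5, Cdx2 rose by a log2 fold change of 4.91 ± 0.26 (edgeR adjusted p 2.78e-12), and at passage 10 Cdx2 was lower in KO than in wild type, with a log2 fold change of -3.42 ± 0.62 (edgeR adjusted p 0.0002). In the same 3 wild-type libraries all 39 Hox genes together had 1 count. Other epithelial markers also differed in these libraries, some higher and some lower than at passage 5. Cdh17, an intestinal cadherin, averaged 7.07 ± 1.30 FPKM in wild type at passage 15, against 0.07 ± 0.03 at passage 5 (SD, n = 3 each). The 12 gastric markers summed to 2760 to 4071 FPKM per library at passage 15, against 7436 to 7669 at passage 5, with the gastrokine Gkn1 at 151 ± 42.5 against 716 ± 17.1 FPKM. The whole list of 8 intestinal markers, which includes Cdx2, summed to 79.5 to 83.5 FPKM at passage 15, against 134 to 137 at passage 5. The part of these markers in the Cdx2 result was not tested.

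Pdx1, a factor of the posterior foregut, antral stomach and pancreas, ran the other way at passage 15. It had 309, 392 and 297 counts in KO at passage 5, 220, 194 and 272 at passage 10, and 244, 244 and 267 at passage 15. In wild type it had 566, 522 and 588 counts at passage 5, 502, 467 and 536 at passage 10, and 27, 38 and 44 at passage 15. Mist1- organoids had 114, 88 and 99. KO libraries were below wild-type ones at passages 5 and 10 and above them at passage 15, with no overlap at any passage. The log2 fold change of KO against wild type was -1.05 ± 0.09 at passage 5 and 2.67 ± 0.13 at passage 15 (edgeR adjusted p 1e-08 and 4.07e-13). At passage 5 Mist1+ organoids exceeded Mist1- organoids by 2.72 ± 0.10 (edgeR adjusted p 9.79e-15).

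**Figure D4:**
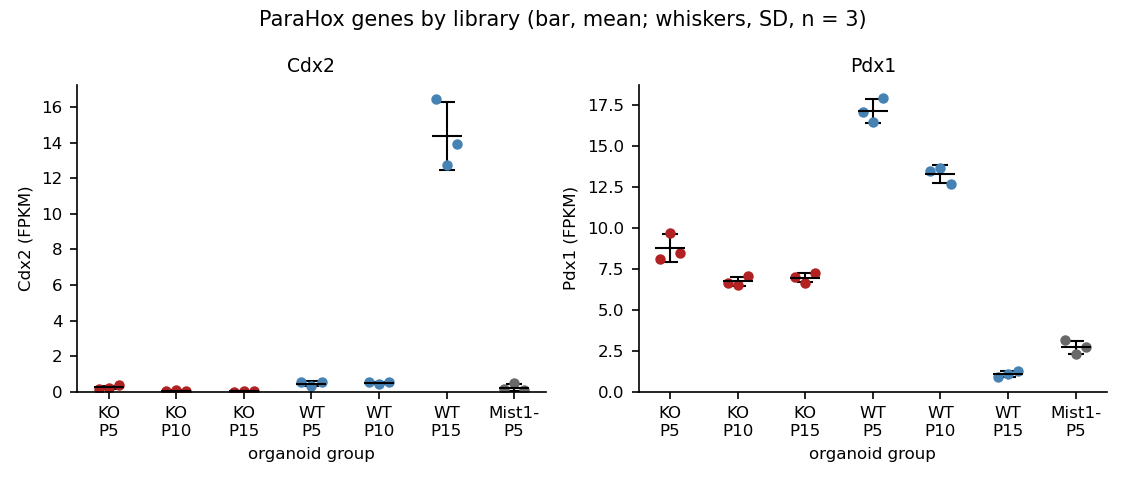
FPKM (y axis) of Cdx2 and Pdx1 in every library (points) of the 7 groups (x axis), with the mean and SD of 3 libraries. Cdx2 averages 14.4 FPKM in wild type at passage 15 and under 1 FPKM in all other groups, while Pdx1 averages 1.09 FPKM in wild type at passage 15 and at least 2.71 FPKM in the other groups.

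RNA of all the listed regulators that hold Hox genes silent or active was detected. All 20 Polycomb genes and all 10 trithorax and H3K27 demethylase genes were detected in all 7 groups, against 10852 of 21871 protein-coding genes. KO against wild type, 3, 4 and 7 Polycomb genes were higher at passages 5, 10 and 15 and 0, 1 and 5 lower. Over all genes, 30.1%, 34.4% and 48.9% were called. The median log2 fold change of the 20 was 0.07, 0.15 and 0.09 at these passages. Ezh2, the main H3K27 methyltransferase, was at 12.4 ± 0.48 FPKM in KO against 9.44 ± 0.42 in wild type at passage 10 (log2 fold change 0.31 ± 0.05, edgeR adjusted p 4.65e-05). Bmi1, a core subunit of the H2A ubiquitin ligase complex, was at 24.7 ± 1.06 FPKM in KO at passage 15, against 17.3 ± 0.18 in KO at passage 5 (0.52 ± 0.06, edgeR adjusted p 2.98e-06). In Mist1+ organoids 8 of the 20 were lower than in Mist1- organoids and 0 higher, where 35.0% of all genes were called in either direction. Jarid2, which helps to recruit the H3K27 methyltransferase, was at 2.42 ± 0.08 FPKM in Mist1+ against 4.02 ± 0.25 in Mist1- organoids (-0.67 ± 0.11, edgeR adjusted p 3.04e-05). Of the 10 trithorax-list genes, KO against wild type, 1, 4 and 6 were higher at passages 5, 10 and 15 and 0 lower, beside the same shares over all genes. Men1, the menin subunit of the MLL complexes, was at 15.5 ± 0.45 FPKM in KO against 9.76 ± 0.39 in wild type at passage 10 (0.60 ± 0.06, edgeR adjusted p 8.48e-08). Where a fit held only the KO and wild-type libraries of one passage, the 5 lists of related genes together gave 29 calls at passage 5, against 16 with all groups, and 11 at passage 15, against 32.

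Of 17 retinoic acid pathway genes, 12 were detected in at least 1 group, against 55.1% of protein-coding genes, and 12 were tested. In Mist1+ against Mist1- organoids 7 were higher and 2 lower, and KO against wild type 0, 1 and 1 were higher and 7, 6 and 7 lower at passages 5, 10 and 15. Over all genes, 35.0% were called between Mist1+ and Mist1- organoids, and 30.1%, 34.4% and 48.9% between KO and wild type at these passages. Rdh10, which oxidises retinol to retinaldehyde, was at 107 ± 0.80 FPKM in Mist1+ against 44.8 ± 0.47 in Mist1- organoids (1.32 ± 0.05, edgeR adjusted p 5e-15). Aldh1a1, which makes retinoic acid from it, was at 14.8 ± 0.50 FPKM in KO against 31.7 ± 0.39 in wild type at passage 5 (-1.19 ± 0.05, edgeR adjusted p 1.4e-13). Aldh1a2, the main embryonic retinoic acid enzyme, had 5 counts in all libraries. Cyp26b1, which breaks retinoic acid down, was at 0.65 ± 0.03 FPKM in KO against 2.48 ± 0.16 in wild type at passage 15 (-1.93 ± 0.12, edgeR adjusted p 1.88e-11). The retinoid receptor genes Rarg and Rxrb, named for their levels, were at 11.8 and 9.27 FPKM over 21 libraries.

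The labelled tissue was checked against marker genes. Of 12 gastric epithelial markers 11 were detected in all 7 groups, summing to between 2760 and 9911 FPKM per library. Of 10 fibroblast and mesenchymal markers only Vim was detected in a group, Dcn and Lum were at 0, and the list summed to 0.05 to 0.73 FPKM per library, highest in KO at passage 15 (0.41 to 0.73) and lowest in wild type at passage 15 (0.05 to 0.11). The part of mesenchymal cells in the Hox counts was not tested. Of 8 intestinal markers 6 were detected in a group, as were 3 of 7 immune, 1 of 5 endothelial, 1 of 6 enteroendocrine and 1 of 5 squamous markers. Per library these lists summed to 57.9 to 175 FPKM (intestinal), 2.31 to 13.7 (immune) and 1.74 to 12.9 (squamous). The endothelial and enteroendocrine lists summed to 0 to 0.31 and 0.07 to 1.45 FPKM. In bulk libraries, fewer cells of a type and less RNA per cell cannot be told apart. Gpx4 had 57.9 to 60.1, 52.0 to 59.2 and 49.0 to 51.8 FPKM in KO at passages 5, 10 and 15, against 69.0 to 74.5, 62.8 to 69.9 and 62.7 to 112 in wild type. It was lower in KO at passages 5 and 15 (edgeR adjusted p 0.0362 and 0.000215) and missed the threshold at passage 10 (0.094). The labels do not say which exons are deleted, so reads from the rest of the gene are included. Bhlha15, which encodes MIST1, was lower in Mist1+ than in Mist1- organoids, at 1.37 to 1.71 against 2.47 to 3.65 FPKM (log2 fold change -0.91 ± 0.14, edgeR adjusted p 1.89e-05), and the group names here follow the labels, which name the cells that the organoids were derived from. Bhlha15 was also higher in KO than in wild type at passages 5 and 15, with log2 fold changes of 0.89 ± 0.14 and 2.08 ± 0.15 (edgeR adjusted p 3.74e-05 and 5.33e-10), and at passage 10 the change was -0.24 ± 0.14 (edgeR adjusted p 0.206). The homeobox gene Pitx1, named after its values were seen, had 4.17 to 11.0 FPKM in KO libraries of all passages and 14.4 to 15.8 FPKM in Mist1- libraries, against 0 to 0.05 FPKM in wild-type libraries of all passages. KO and Mist1- libraries thus both lay above wild type in these genes at passage 5, and whether this moved with the differences of KO from wild type given above was not tested. Depth was 13805585 to 19608956 counts per library. The wild-type libraries of passage 15 varied more among themselves than the others, with a biological coefficient of variation of 21.1%, against 1.89% to 3.07% in the other 6 groups.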

How the data were processed

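RNA of gastric organoids was sequenced in 21 libraries (7 groups of 3, from the labels); another 6 of the 27 libraries, sorted cells, were not analysed here. The deposited table gives raw read counts per gene, and FPKM that the authors computed; FPKM recomputed from counts, exonic length and library total were equal within 0.006 in 100% of values. Per the submitters' processing notes, cutadapt 1.9.1, HISAT2 2.2.1, HTSeq 0.6.1 and GRCm38.p5 were used; strand setting and counting mode are not given in the sources used here. The start of only 1485 of 52073 shared genes equalled that in GENCODE M21, so the table's own coordinates are on another build, and printed gene positions are from M21 (GRCm38).

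One edgeR 4.0.16 model (R 4.3.3) was fitted to all 21 libraries, with TMM, filterByExpr (minimum count 10, minimum total 15), quasi-likelihood F-test, robust, Benjamini-Hochberg over 15115 genes, threshold 0.05. The fit was tested on simulated data, but no setting or result of that test is given here. It is not taken as a check of the fit under the unequal spread of the real groups. Their biological coefficient of variation ran from 1.89% to 21.1%. Each SE was obtained from the log2 fold change and its F statistic (the ratio of the change to the root of F). Intervals are 95% exact Poisson or counting intervals with an upper and a lower side. Limits for a count of 0 use 3 counts, a 95% upper limit with no lower side. Both cover counting error only. Total counts per library set this precision. DESeq2 1.42.0, other scaling, filters, groups and left-out libraries were alternatives. Members and gene lists were chosen with earlier results of these data known. Every Hox gene is counted, though results of some single genes are not reported here; from each related list, up to 3 called genes per comparison, by adjusted p, could be named, while undetected list genes and plain levels were named without a test.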

Additional observations from a re-analysis of the deposited data

Results flagged for a closer look

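In 4 genes related to the Hox system the change from passage 5 to 15 differed between KO and wild-type organoids, by the interaction term of the edgeR quasi-likelihood test. The difference of log2 fold changes, KO minus wild type, was 3.73 ± 0.16 for Pdx1 (SE; edgeR adjusted p 9.14e-14), whose counts were 244 to 267 in KO and 27 to 44 in wild type at passage 15. For Cdx2 it was -8.41 ± 0.86 (edgeR adjusted p 1.56e-07). That value rests on 2 counts in KO at passage 15, against 1491 in wild type, and is no bound. For Meis2 it was 0.64 ± 0.13 (edgeR adjusted p 0.000426), and for Pbx3 it was 0.49 ± 0.11 (edgeR adjusted p 0.00166). All 4 calls held in each of the 17 alternatives, with adjusted p up to 8.54e-09 for Pdx1, 6.14e-06 for Cdx2, 0.009 for Meis2 and 0.0236 for Pbx3.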

How the results depend on the processing

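The counts of Hox genes detected (0 in at least 1 group, 0 in all 7) were the same with 5 or 20 counts, with 0.1 FPKM, and without each replicate number. Hox genes entered a test only without the low-count filter and in DESeq2, where 8 were tested and 0 called. In all other alternatives no Hox gene was tested, so none could be called. The planned log2 fold changes of named Hox genes have no value, since no Hox gene was detected. Limits on unshared exonic bases were added after the data were seen. Over all genes, counts called depended on which libraries shared the estimate of spread. Without the wild-type libraries of passage 15 they were 7095 for KO against wild type at passage 5, against 4547 with them, 2766 (738) for wild-type passage 10 against 5, 3330 (1150) and 4492 (1960) for KO passages 10 and 15 against 5. With only the groups compared they were 7035, 2827, 3059 and 4606 in the same order, 2735 (7396) for KO against wild type at passage 15 and 3631 (7761) for wild-type passage 15 against 5. Leaving out 1 library gave 3776 to 3828 for KO against wild type at passage 5 and 6323 to 9140 at passage 15. Comparisons that use the wild-type libraries of passage 15 were not run without them. Same-numbered libraries did not vary together (correlations of deviations -0.031 to 0.027). These values show no shared variation by number, but they cannot tell whether libraries were paired by design. With the replicate block, 4510 genes were called for KO against wild type at passage 5, and no Hox gene was tested. Of 100 calls of related genes, 70 held under every alternative and none reversed; 97 of 1239 values lost the call, 2 of them under the block.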
